A study of Mus musculus with 2 samples.

Results

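The 10 genes described here encode the enzymes that trim prohormones in the secretory pathway. They are the convertases Furin, Pcsk1, Pcsk2, Pcsk4, Pcsk5, Pcsk6 and Pcsk7, the carboxypeptidases Cpe and Cpd, and the amidating enzyme Pam. They were taken by symbol from a gene list of 32287 entries, and all 10 were found in both count matrices. The question was which convertases are present in parathyroid cells, which must cut the parathyroid hormone precursor, and how their levels compare with those of the other cell types of the gland.

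Convertases are serine proteases that cut precursor proteins after runs of basic amino acids, arginine and lysine. Furin, PC7 (Pcsk7), PC5/6 (Pcsk5) and PACE4 (Pcsk6) act along the constitutive secretory pathway and at the cell surface, whereas PC1/3 (Pcsk1) and PC2 (Pcsk2) act in the acidic dense-core granules of many endocrine and neural cells, and PC4 (Pcsk4) is known mainly from germ cells. After the cut, carboxypeptidases remove the basic residues left at the new end, and peptidylglycine alpha-amidating monooxygenase (Pam) turns a C-terminal glycine into an amide. In the parathyroid gland, the propeptide of parathyroid hormone is removed before the hormone is stored in granules, and furin and PC7 are the convertases known for this cut.

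The samples were 2 single-cell RNA-seq libraries from 8 mice. All hosts were adult Gcm2-/- mice on a BDF1B6 background, which cannot form the gland themselves, complemented with mouse embryonic stem cells carrying Pth-tdTomato. Replicate 1 pooled stem-cell-derived glands of 3 mice aged 9 to 12 weeks, with a blood chimerism of 50 to 70%, and replicate 2 those of 5 mice aged 6 to 13 weeks, with 60 to 70%. Each pool held both sexes, so that no single mouse can be followed, and no gland of another genotype was analysed here. The hosts also keep cells of their own. The count matrices hold a Gfp entry, but the labels do not say which cells it marks, and the classes other than parathyroid were not divided by origin here.

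After quality filtering 1240 barcodes with 39816872 UMIs remained in replicate 1 and 3313 with 87142723 UMIs in replicate 2. Barcodes with Pth at 5% or more of their UMIs were taken as parathyroid, 660 and 2237 of those kept. The 566 and 1054 barcodes with Pth under 1% were clustered and named from markers, the ending "like" marking a name that rests on them, and 14 and 22 barcodes in between were left out. Of the 7 convertases, 3 were above 1 CPM, the UMI count scaled to the UMI total of a class in its library, in parathyroid barcodes, and the levels are of 3' UMIs, which need no scaling by length but can be captured unequally between genes. Gcm2, the gene the hosts lack, was at 157 and 159 CPM in parathyroid barcodes of replicates 1 and 2 and at means of 2.05 to 4.15 CPM in the other classes compared. All 5 parathyroid markers were present, but Pth is among them and was fixed by the choice of barcodes. Casr, the calcium receptor, was at 349 and 314 CPM. Of the markers of C cells, which make calcitonin in the neighbouring thyroid, Calcb was at 0, Ret had 4 and 3 UMIs, Calca was at 6.64 and 0.406 CPM, and Gfra4 was at 123 and 151 CPM.

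The sites that these enzymes could act on can be read in the coding sequences of the main parathyroid substrates. Parathyroid hormone (Pth, chromosome 7, 113385580 to 113388570, minus strand, GRCm38) was at 142702 and 158372 CPM in parathyroid barcodes, and chromogranin A (Chga, chromosome 12, 102554969 to 102565028, plus strand), a granule protein, at 84907 and 76436 CPM. The coding sequence of Pth in the GENCODE annotation of GRCm38 has 345 bases and 3 runs of 2 or more neighbouring basic codons, which are AAA or AAG for lysine and CGN, AGA or AGG for arginine. They are shown 5′ to 3′ on the coding strand with up to 7 codons on either side and with the basic codons in capitals, because the convertases cut after such runs. Run 1 is the site at which the propeptide is removed, and runs 2 and 3 lie within the hormone.

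Pth run 1, codons 29 to 31, Arg-Lys-Arg: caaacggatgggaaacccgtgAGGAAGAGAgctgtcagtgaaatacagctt
Pth run 2, codons 56 to 58, Arg-Arg-Lys: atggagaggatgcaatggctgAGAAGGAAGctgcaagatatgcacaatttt
Pth run 3, codons 84 to 85, Lys-Lys: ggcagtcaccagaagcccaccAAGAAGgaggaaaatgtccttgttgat
Chga run 3, codons 356 to 357, Lys-Arg: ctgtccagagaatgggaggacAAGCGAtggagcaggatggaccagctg
Chga run 4, codons 372 to 373, Lys-Arg: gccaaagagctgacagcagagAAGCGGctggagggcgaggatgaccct

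The coding sequence of Chga, with 463 codons, holds 8 such runs, and the 2 shown border the 14 codons of a known chromogranin A peptide. None of the 11 runs in Pth and Chga has an arginine codon at the fourth position before the cut, which is the position that with the last arginine forms the minimal furin motif. None follows a glycine codon directly, the arrangement that would leave a glycine for Pam once the basic residues are gone. A run of this kind is common: 95.2% of 20039 mouse coding sequences had at least 1, as did 78.0% of the 478 sequences within 10 codons of the length of Pth, and 7.56% of all 135607 runs followed a glycine codon. These are matches of letters, and whether a site is cut was not measured.

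Furin was the convertase with the highest level in parathyroid barcodes, followed by Pcsk7 and then Pcsk4, and the other 4 were near 0. Of all convertase UMIs in parathyroid barcodes, 1795 in replicate 1 and 3388 in replicate 2, Furin made up 54.5% and 58.5%, Pcsk7 35.2% and 31.8%, and Pcsk4 9.42% and 7.82%. Pcsk5 gave 0.557% and 1.36%, Pcsk2 0.223% and 0.266%, Pcsk6 0.0557% and 0.177%, and Pcsk1 0% and 0.0590%. The order of the first 3 was the same in both libraries. Compared with Pth, there was 1 Furin UMI for every 4416 Pth UMIs in replicate 1 and for every 5715 in replicate 2.

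**Figure D1:**
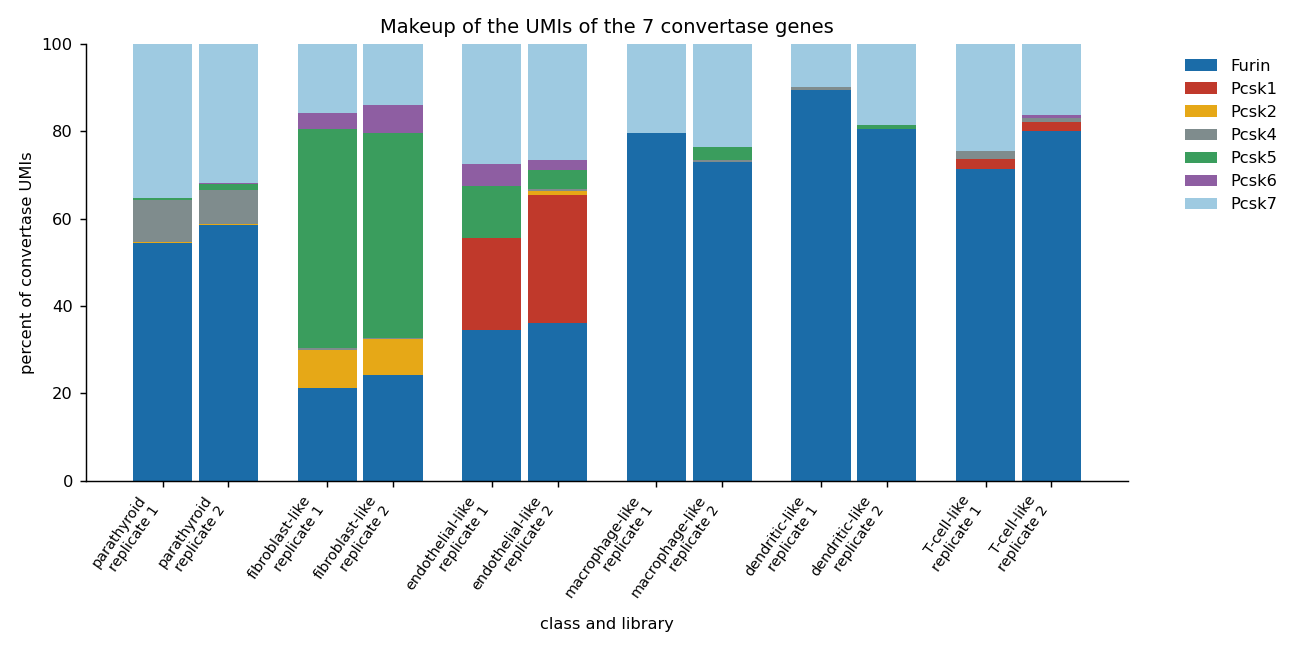
Share of each convertase gene among all convertase UMIs, in percent, for parathyroid barcodes and the 5 other classes compared, with 1 bar per library. Furin and Pcsk7 together fill most of the parathyroid bars, Pcsk5 takes 50.2% and 47.0% in fibroblast-like barcodes, and Pcsk1 takes 20.9% and 29.4% in endothelial-like barcodes.

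The makeup of parathyroid barcodes differed from that of each other class compared, whereas the macrophage-like and T-cell-like makeups were close to each other. In fibroblast-like barcodes Pcsk5 had 50.2% and 47.0% of convertase UMIs, Furin 21.2% and 24.2%, and Pcsk2 8.75% and 8.19%. In endothelial-like barcodes Furin had 34.6% and 36.1%, Pcsk7 27.5% and 26.6%, and Pcsk1 20.9% and 29.4%. The 3 leukocyte classes held mainly Furin, with 79.5% and 73.0% in macrophage-like, 89.4% and 80.4% in dendritic-like and 71.3% and 80.0% in T-cell-like barcodes. Pcsk4 reached no more than 1.83% in any of these 5 classes. Summed over the 7 genes, the convertase level was lowest in parathyroid barcodes, at 59.3 and 47.4 CPM, and lay between 85.2 and 252 CPM in the other 5 classes. This sum is relative to all UMIs, and parathyroid barcodes were the deepest, so it does not rank the classes by convertase UMIs per barcode. These shares and sums are descriptions with no test.

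For the tests, UMIs were summed per library and class over the 6 classes with at least 20 barcodes in each library. edgeR's quasi-likelihood test was then fitted on all 13264 genes that passed its count filter, with library as a block, and p-values were adjusted over all of these genes (Benjamini-Hochberg, threshold 0.05). The p-values measure the spread of class differences between these 2 pools only, and intervals given for counts cover counting error only. Of the 10 genes, 9 passed the filter, and Pcsk4 did not. Pcsk1, Pcsk2, Pcsk5 and Pcsk6 passed only through classes in which they were high, so that the counts that follow describe these genes and do not support a statement about the family. Of 50 pairs of a gene and a class, 45 were tested: 8 were called higher in parathyroid barcodes, 18 lower and 19 neither. Over all genes and classes 29.7% of tests were called higher and 25.7% lower.

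**Figure D2:**
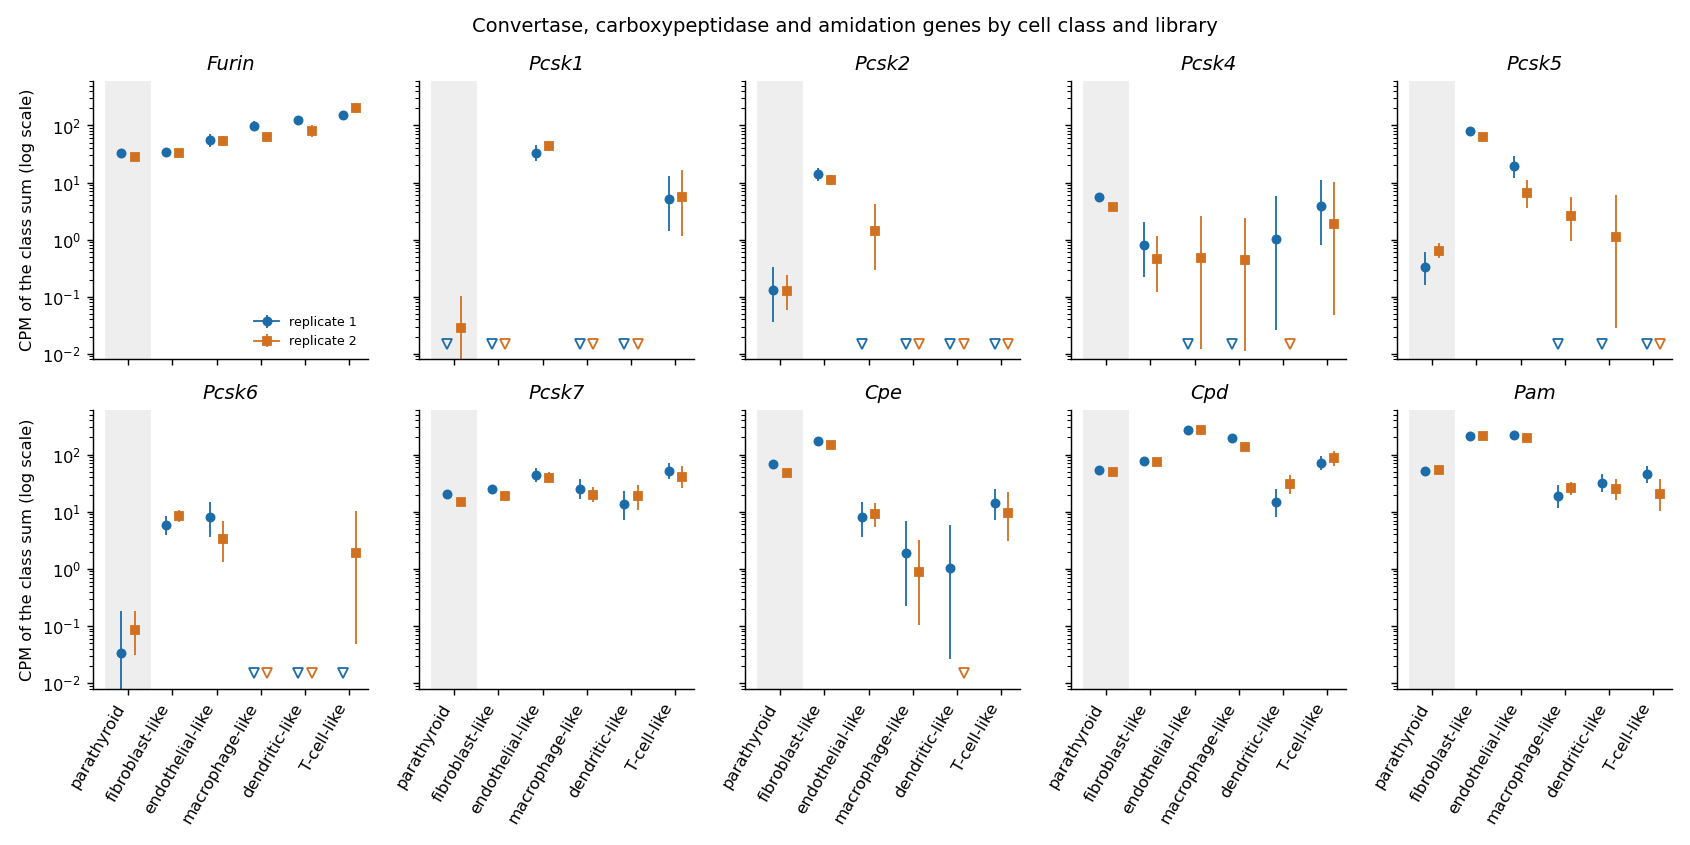
Level of each of the 10 genes in CPM, on a log axis, in parathyroid barcodes and the 5 other classes, with 1 point per library and bars for the 95% counting interval. In parathyroid barcodes Furin, Pcsk7, Pcsk4, Cpe, Cpd and Pam stand above 1 CPM in both libraries and Pcsk1, Pcsk2, Pcsk5 and Pcsk6 below it.

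Parathyroid barcodes were also set against the mean log level of the 5 other classes. Here 9 genes were tested, where 36.3% of all genes were called higher and 21.8% lower. Cpe was called higher, Furin, Pcsk7 and Cpd lower, and the other 5 were not called. Pcsk1, Pcsk2, Pcsk5 and Pcsk6 each had a class without a single UMI, for which a mean of logs has no sound value, and the class-by-class results are therefore given for each gene. The median log2 difference of the 9 genes was -0.69, beside a median of 0.15 over all genes tested. That median includes the values of Pcsk1, Pcsk2, Pcsk5 and Pcsk6, so it is no measure of the family.

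Furin (ENSMUSG00000030530, chromosome 7, 80388585 to 80405436, minus strand) encodes the convertase of the trans-Golgi network. It was at 32.3 CPM in parathyroid barcodes of replicate 1 and 27.7 CPM of replicate 2, with an SD of 3.26 over the 2 libraries, from 979 and 1981 UMIs. It was at 33.7 and 32.6 CPM in fibroblast-like, 55.5 and 53.7 CPM in endothelial-like, 98.8 and 62.2 CPM in macrophage-like, 123 and 81.5 CPM in dendritic-like and 151 and 202 CPM in T-cell-like barcodes. By CPM over all UMIs parathyroid barcodes were thus lowest in each library and T-cell-like barcodes highest. The order against fibroblast-like barcodes turned when Pth was left out of the UMI total: Furin was then at 37.7 and 32.9 CPM in parathyroid and 33.8 and 32.6 CPM in fibroblast-like barcodes. The parathyroid values overlapped with those of none of the other 4 classes, and macrophage-like and dendritic-like values overlapped with each other.

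Furin was lower in parathyroid barcodes than in T-cell-like barcodes by a log2 difference of -2.20 (SE 0.24, edgeR adjusted p = 1.6e-05), than in dendritic-like barcodes by -1.78 (SE 0.24, edgeR adjusted p = 6.8e-05) and than in macrophage-like barcodes by -1.46 (SE 0.24, edgeR adjusted p = 0.000232). The difference from endothelial-like barcodes was -0.62 (SE 0.24, edgeR adjusted p = 0.0462). That last call was lost in edgeR without the count filter (-0.50, edgeR adjusted p = 0.115) and without the library block (-0.61, edgeR adjusted p = 0.0805). Against fibroblast-like barcodes the difference was -0.07 (SE 0.22, edgeR adjusted p = 0.814) and was not called, and TMM scaling within 1 library gave 0.06 in replicate 1 and -0.16 in replicate 2. The T-cell-like class was not uniform. Its cluster led by Trdc, a gamma-delta T cell gene, was at 254 and 236 CPM of Furin, and its cluster with the cytotoxic genes Gzma and Nkg7 at 20.3 and 12.4 CPM. The latter held 24 of 60 T-cell-like barcodes in replicate 1 and 7 of 58 in replicate 2, and without it the log2 difference was -2.66 (edgeR adjusted p = 6.7e-07).

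Because parathyroid barcodes are deep, the number of Furin UMIs per barcode placed them above fibroblast-like and endothelial-like barcodes, which the CPM did not, and still below the 3 leukocyte classes. There were 1.48 and 0.886 Furin UMIs per parathyroid barcode, at median depths of 37729.5 and 30583 UMIs. Fibroblast-like barcodes had 0.723 and 0.640 at 21691 and 19680 UMIs, and endothelial-like barcodes 0.594 and 0.422 at 10250 and 7589 UMIs. There were 1.95 and 1.86 Furin UMIs per T-cell-like, 2.31 and 1.54 per dendritic-like and 1.62 and 1.03 per macrophage-like barcode. A Furin UMI was seen in 70.2% and 54.9% of parathyroid barcodes. After each barcode was thinned to 10000 UMIs, which left out 21 and 60 shallower parathyroid barcodes, the shares were 30.8% (95% exact binomial interval 27.3 to 34.6) and 21.9% (20.1 to 23.7). In fibroblast-like barcodes they were 31.0% (24.8 to 37.7) and 28.1% (23.9 to 32.6), and 18 and 23 barcodes were left out.

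Pcsk7 (ENSMUSG00000035382, chromosome 9, 45906497 to 45929726, plus strand) encodes PC7, the convertase most distant in sequence from the others. It was at 20.9 and 15.1 CPM in parathyroid barcodes, from 632 and 1079 UMIs. The other classes were at 25.0 and 18.9 CPM (fibroblast-like), 44.1 and 39.6 CPM (endothelial-like), 25.4 and 20.0 CPM (macrophage-like), 13.6 and 18.7 CPM (dendritic-like) and 51.5 and 41.1 CPM (T-cell-like). The endothelial-like and T-cell-like values stood above those of the other 4 classes. The parathyroid values overlapped with the fibroblast-like, macrophage-like and dendritic-like ones, and the dendritic-like values lay below the fibroblast-like and macrophage-like ones. Pcsk7 was lower in parathyroid than in T-cell-like barcodes by -1.03 (SE 0.24, edgeR adjusted p = 0.00368) and than in endothelial-like barcodes by -0.99 (SE 0.21, edgeR adjusted p = 0.0015). The log2 differences from fibroblast-like, macrophage-like and dendritic-like barcodes were -0.21, -0.42 and 0.13, with edgeR adjusted p-values of 0.375, 0.135 and 0.726. Against the mean of the classes it was lower by -0.50 (SE 0.15, edgeR adjusted p = 0.0145), a call that was lost without the count filter (-0.39, edgeR adjusted p = 0.128). Counted per barcode, Pcsk7 UMIs were instead most numerous in the deep parathyroid barcodes among the classes compared, at 0.958 and 0.482. T-cell-like barcodes had 0.667 and 0.379, fibroblast-like 0.537 and 0.371, and endothelial-like 0.472 and 0.311. Macrophage-like barcodes had 0.415 and 0.331, and dendritic-like barcodes 0.255 and 0.354. The gene overlaps Rnf214 and Tagln on the other strand, and the sources used here do not say whether the counting used strand. Furin, Pcsk2 and Pcsk6 also overlap listed genes on the other strand, and Pam overlaps a listed gene on the same strand. Tagln marks smooth muscle. The pericyte or smooth muscle-like barcodes were at 45.2 and 57.5 CPM of Pcsk7, from 6 and 13 UMIs. Whether Tagln reads entered these counts was not tested.

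Pcsk4 (ENSMUSG00000020131, chromosome 10, 80321283 to 80329498, minus strand) was at 5.58 and 3.71 CPM in parathyroid barcodes, from 169 and 265 UMIs. The 5 other classes held 15 Pcsk4 UMIs between them, 4 and 4 in fibroblast-like, 3 and 1 in T-cell-like, 1 and 0 in dendritic-like, and 0 and 1 each in endothelial-like and macrophage-like barcodes. Among the 6 classes compared the level was thus low and highest in parathyroid barcodes in both libraries, although the gene did not enter the filtered fit. Of the classes too small to compare, the pericyte or smooth muscle-like barcodes were at 22.6 CPM in replicate 1, from 3 UMIs, and had 0 UMIs in replicate 2. In the fit without a count filter Pcsk4 was higher than in fibroblast-like barcodes by 3.08 (SE 0.63, edgeR adjusted p = 6.3e-06). The difference from the mean of the classes was 3.07 (SE 0.52, edgeR adjusted p = 2.92e-08). That mean of logs takes in 3 classes with 1 Pcsk4 UMI each, so its value and p rest on very few counts. Pcsk4 was also called higher than in endothelial-like, macrophage-like and dendritic-like barcodes, with edgeR adjusted p-values of 0.00052, 0.00164 and 0.0228. Each of these 3 classes held 1 UMI, and the parathyroid level was 13.9 times (95% counting interval 2.48 to 549.9), 14.3 times (2.56 to 568) and 7.95 times (1.42 to 315) theirs. Against T-cell-like barcodes, with 4 UMIs, the difference was 1.06 (SE 0.85, edgeR adjusted p = 0.468) and was not called.

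Pcsk4 UMIs were spread over many parathyroid barcodes, 136 of 660 in replicate 1 (20.6%) and 238 of 2237 in replicate 2 (10.6%). After thinning to 10000 UMIs the shares were 5.63% (3.98 to 7.71) and 3.58% (2.84 to 4.45), against 1.41% (0.291 to 4.06) and 0.233% (0.00589 to 1.29) in fibroblast-like barcodes. The interval of replicate 1 in fibroblast-like barcodes reached the parathyroid interval, and that of replicate 2 did not.

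Pcsk5, Pcsk6, Pcsk2 and Pcsk1 were at or near 0 in parathyroid barcodes, and each had a higher level in another class compared. Pcsk5 (ENSMUSG00000024713, chromosome 19, 17432319 to 17837632, minus strand) and Pcsk6 (ENSMUSG00000030513, chromosome 7, 65861734 to 66050386, plus strand) encode secreted convertases that cut growth factors such as those of the TGF-beta family. Pcsk5 had 10 and 46 UMIs in parathyroid barcodes, 0.330 and 0.643 CPM, against 80.0 and 63.1 CPM in fibroblast-like and 19.4 and 6.60 CPM in endothelial-like barcodes. It was lower than in fibroblast-like barcodes by -6.92 (SE 0.44, edgeR adjusted p = 2.37e-07) and than in endothelial-like barcodes by -4.14 (SE 0.61, edgeR adjusted p = 0.00018). Macrophage-like barcodes held 0 and 6 UMIs (log2 difference -1.79, edgeR adjusted p = 0.187), dendritic-like barcodes 1 and T-cell-like barcodes 0. Pcsk6 had 1 and 6 UMIs in parathyroid barcodes, 0.0330 and 0.0839 CPM, against 5.86 and 8.42 CPM in fibroblast-like and 7.93 and 3.30 CPM in endothelial-like barcodes. Its differences were -6.46 (SE 0.74, edgeR adjusted p = 3.89e-05) and -5.84 (SE 0.89, edgeR adjusted p = 0.000328). These differences rest on few parathyroid UMIs, and they moved with the library, as did the endothelial-like levels. Against endothelial-like barcodes Pcsk5 was lower by -5.61 in replicate 1 alone and -3.10 in replicate 2 alone, and Pcsk6 by -7.64 and -5.04. Against fibroblast-like barcodes the values were -7.80 and -6.55 for Pcsk5 and -7.35 and -6.58 for Pcsk6. The Pcsk5 and Pcsk6 values of parathyroid barcodes overlapped with neither class, whereas those of fibroblast-like and endothelial-like barcodes overlapped for Pcsk6 only.

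Pcsk2 (ENSMUSG00000027419, chromosome 2, 143546156 to 143816285, plus strand), the granule convertase of pancreatic alpha cells and many neurons, had 4 and 9 UMIs in parathyroid barcodes, 0.132 and 0.126 CPM. In fibroblast-like barcodes it was at 13.9 and 11.0 CPM, from 69 and 98 UMIs, and the log2 difference was -6.38 (SE 0.62, edgeR adjusted p = 2.41e-05). Endothelial-like barcodes held 0 and 3 Pcsk2 UMIs, and the 3 leukocyte classes held 0. Pcsk1 (ENSMUSG00000021587, chromosome 13, 75089826 to 75134861, plus strand), the granule convertase that makes insulin and ACTH from their precursors, had 0 UMIs in the 660 parathyroid barcodes of replicate 1 and 2 in the 2237 of replicate 2. A count of 0 among 660 allows a share of barcodes with a UMI of up to 0.455% when the limit is set at 3 counts, and the upper end of the 95% exact binomial interval was 0.557%. Endothelial-like barcodes held 38 and 93 Pcsk1 UMIs, 33.5 and 43.8 CPM, a level 2047 times that of parathyroid barcodes with a 95% counting interval of 555 to 17077. Pcsk1 was called lower in parathyroid barcodes against endothelial-like barcodes (edgeR adjusted p = 2.5e-06) and against T-cell-like barcodes, which held 4 and 3 UMIs (edgeR adjusted p = 0.000619). The 4 UMIs of replicate 1 came from 1 of 60 T-cell-like barcodes. Fibroblast-like, macrophage-like and dendritic-like barcodes had no Pcsk1 UMI.

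The few UMIs of these 4 genes in parathyroid barcodes can be set beside the background of RNA from other cells. The 7 fibroblast markers, from Dcn to Fbn1, were all seen in parathyroid barcodes, at a median of 0.0740% and 0.481% of their fibroblast-like level (range 0.0531 to 0.730% and 0.359 to 1.01%) and summed to 18.3 and 120 CPM against 23714 and 26499 CPM. Pcsk5 in parathyroid barcodes was at 0.413% and 1.02% of its fibroblast-like level, Pcsk6 at 0.564% and 0.996%, and Pcsk2 at 0.948% and 1.14%. In replicate 1 the Pcsk5 and Pcsk6 shares lay within the range of the markers and the Pcsk2 share above it. In replicate 2 the Pcsk6 share lay within it and the Pcsk5 and Pcsk2 shares just above. The part of such background in these UMIs was not tested. In the other direction, Pth in the 5 other classes was at 0.827 to 1.25% of its parathyroid level. That ratio is bounded by the Pth limits that divided the barcodes. Chga, which was not used to divide them, was at 0.754 to 1.55% of its parathyroid level in these classes.

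**Figure D3:**
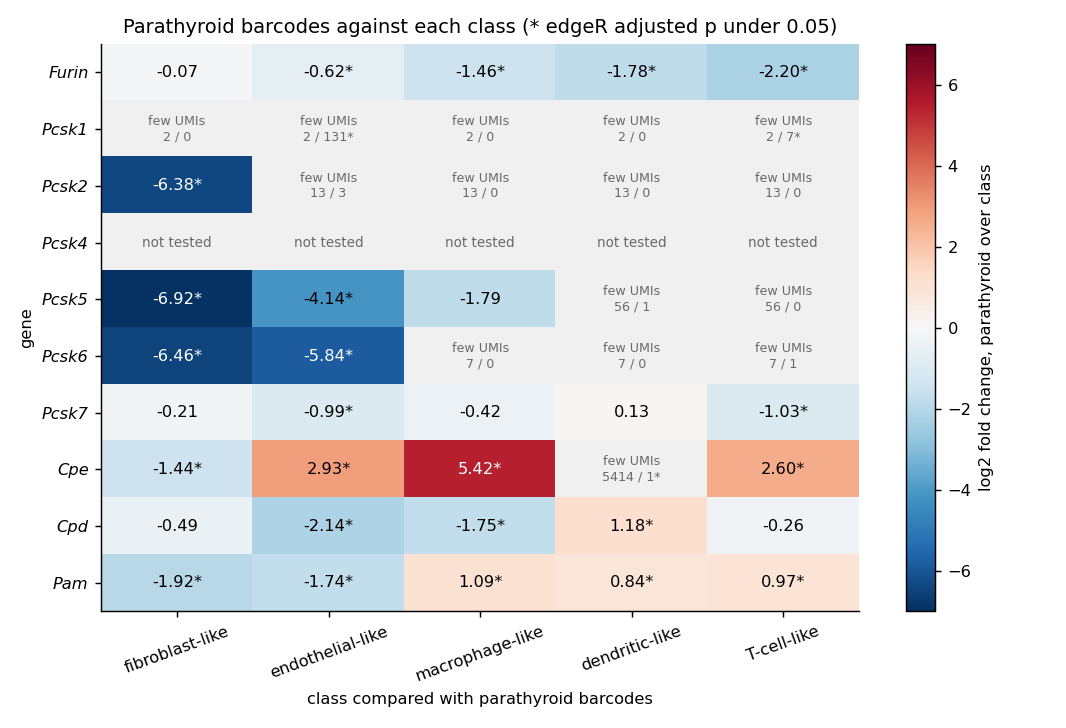
Log2 difference of parathyroid barcodes against each of 5 classes for the 10 genes, from edgeR, with an asterisk where the adjusted p was under 0.05. Grey cells give the UMIs of parathyroid barcodes and of the class where either had 3 or fewer, or mark a gene that was not tested; Cpe is the gene with the largest positive values, and the largest negative values are those of Pcsk5, Pcsk6 and Pcsk2.

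Of the 3 enzymes that act after the cut, Cpe was called higher in parathyroid barcodes against 4 of the 5 classes and lower against fibroblast-like barcodes. Cpe (ENSMUSG00000037852, chromosome 8, 64592542 to 64693054, minus strand) encodes carboxypeptidase E, the carboxypeptidase of dense-core granules. It was at 67.6 and 47.1 CPM in parathyroid barcodes, from 2048 and 3366 UMIs, and at 177 and 149 CPM in fibroblast-like barcodes. The other classes were at 7.93 and 8.95 CPM (endothelial-like), 14.2 and 9.35 CPM (T-cell-like) and 1.88 and 0.869 CPM (macrophage-like, 2 UMIs in each library), and dendritic-like barcodes held 1 and 0 UMIs. Fibroblast-like barcodes were highest, parathyroid barcodes second, and neither overlapped with another class. Within the fibroblast-like class, the cluster led by Ptn and Lama2 was at 93.5 and 49.7 CPM. The cluster led by Col1a2 and Col1a1 was at 86.1 and 67.5 CPM. These were closer to the parathyroid values than the remaining fibroblast-like clusters, at 99.2 to 393 CPM.

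Cpe was higher in parathyroid than in macrophage-like barcodes by 5.42 (SE 0.39, edgeR adjusted p = 2.68e-07), endothelial-like barcodes by 2.93 (SE 0.26, edgeR adjusted p = 1.92e-06) and T-cell-like barcodes by 2.60 (SE 0.31, edgeR adjusted p = 2.8e-05). Against dendritic-like barcodes it was called higher (edgeR adjusted p = 7.86e-07), with a ratio of 99.1 and a 95% counting interval of 17.8 to 3916. It was lower than in fibroblast-like barcodes by -1.44 (SE 0.18, edgeR adjusted p = 2.36e-05). After thinning, 48.0% and 34.5% of parathyroid barcodes had a Cpe UMI, against 69.5% and 55.8% of fibroblast-like barcodes.

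Cpd (ENSMUSG00000020841, chromosome 11, 76778424 to 76847018, minus strand) encodes carboxypeptidase D, which acts with furin in the trans-Golgi network. It was at 53.8 and 49.6 CPM in parathyroid barcodes, from 1629 and 3545 UMIs. Endothelial-like barcodes were at 271 and 269 CPM, macrophage-like at 197 and 138, T-cell-like at 72.1 and 86.0, fibroblast-like at 78.8 and 75.0 and dendritic-like at 14.6 and 30.9 CPM. Parathyroid barcodes were second lowest in both libraries, and the T-cell-like and fibroblast-like values overlapped. Cpd was lower in parathyroid than in endothelial-like barcodes by -2.14 (SE 0.23, edgeR adjusted p = 9.98e-06) and than in macrophage-like barcodes by -1.75 (SE 0.23, edgeR adjusted p = 4.79e-05), and higher than in dendritic-like barcodes by 1.18 (SE 0.30, edgeR adjusted p = 0.00513). With 1 library the last value was 1.88 in replicate 1 and 0.70 in replicate 2. The difference from T-cell-like barcodes was -0.26 (edgeR adjusted p = 0.449). That from fibroblast-like barcodes was -0.49 (SE 0.22, edgeR adjusted p = 0.0803), but it was called with DESeq2 size factors (-0.62, adjusted p = 0.0366) and with scaling by total UMIs (-0.57, adjusted p = 0.0496).

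Pam (ENSMUSG00000026335, chromosome 1, 97795114 to 98095646, minus strand) was at 50.8 and 53.9 CPM in parathyroid barcodes, from 1538 and 3850 UMIs. Fibroblast-like barcodes were at 211 and 209 CPM and endothelial-like barcodes at 221 and 196 CPM, and these 2 overlapped. The leukocyte classes were at 18.8 and 26.1 (macrophage-like), 32.4 and 25.3 (dendritic-like) and 45.0 and 20.6 CPM (T-cell-like), all below parathyroid barcodes and overlapping with each other. Pam was lower in parathyroid barcodes than in fibroblast-like barcodes by -1.92 (SE 0.23, edgeR adjusted p = 1.62e-05) and than in endothelial-like barcodes by -1.74 (SE 0.23, edgeR adjusted p = 4.98e-05). It was higher than in macrophage-like barcodes by 1.09 (SE 0.27, edgeR adjusted p = 0.00428).

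The 2 remaining Pam calls were less firm. Against T-cell-like barcodes the log2 difference was 0.97 (SE 0.30, edgeR adjusted p = 0.0174). It was 0.55 in replicate 1 alone and 1.75 in replicate 2 alone, and the edgeR call was lost with predicted doublets kept (0.70, edgeR adjusted p = 0.0804) and with scaling by total UMIs (0.62, edgeR adjusted p = 0.0988). Within that class Pam was at 92.8 and 124 CPM in the cluster with Gzma and Nkg7 and at 6.94 and 2.20 CPM in the Trdc cluster, and without the former the difference was 3.91 (edgeR adjusted p = 1.9e-05). Against dendritic-like barcodes Pam was higher by 0.84 (SE 0.29, edgeR adjusted p = 0.0248), a call lost with DESeq2 size factors (0.69, adjusted p = 0.0513). The dendritic-like cluster led by Ccr7 was at 140 and 40.9 CPM of Pam, from 11 and 5 barcodes, and the cluster led by Cd209a at 2.67 and 23.5 CPM.

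Class by class, the calls on the 9 tested genes leaned in different directions. Against endothelial-like barcodes 1 gene was called higher and 7 lower, where 28.3% and 25.2% of all genes were. Against fibroblast-like barcodes none was called higher and 5 lower, beside 29.1% and 29.2% of all genes. The 4 not called there were Furin, Pcsk7 and Cpd, given above, and Pcsk1, with 0 UMIs in fibroblast-like barcodes; at an unadjusted p under 0.05 none of the 9 was higher either, and DESeq2 also called none higher. Against macrophage-like barcodes 2 were higher and 2 lower (30.3% and 29.1% of all genes), against dendritic-like barcodes 3 and 1 (31.7% and 24.9%), and against T-cell-like barcodes 2 and 3 (29.4% and 20.2%). Under scaling by total UMIs, the split of all genes moved to 2916 higher and 3471 lower against T-cell-like barcodes, from 3894 and 2681, and to 2973 and 4003 against endothelial-like barcodes, from 3749 and 3336.

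The classes were themselves uneven, and the convertase genes marked clusters within them. In the endothelial-like class Pcsk1 was at 99.2 and 149 CPM in the cluster numbered 4, where 5 of 26 and 20 of 62 barcodes had a UMI, and at 7.97 to 12.0 CPM in clusters 1 and 3. In replicate 1 a single barcode held 48.4% of the Pcsk1 UMIs of cluster 4, and in replicate 2 the highest share was 17.3%. In the fibroblast-like class Pcsk5 was at 249.8 and 113 CPM in cluster 10, led by Fam155a and Inmt, and at 168 and 287 CPM in cluster 18, led by Gsn and Col3a1, with 12.7 to 40.7 CPM in the other 4. Cluster 18 was also highest for Pcsk6, at 24.0 and 65.1 CPM, from 5 and 42 UMIs. In replicate 1 its counting interval overlapped that of cluster 10, at 13.1 CPM. Cluster 11, led by Apod, was highest for Pcsk2, at 56.7 and 23.4 CPM, from 31 and 11 UMIs. In replicate 2 cluster 13 was close, at 22.0 CPM, and the intervals overlapped. Cpd in the macrophage-like class was at 307 and 242 CPM in cluster 14, which had Mmp12 among its leading genes, and at 42.1 and 21.6 CPM in cluster 15, which had Folr2. Each of these clusters was found in both libraries.

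**Figure D4:**
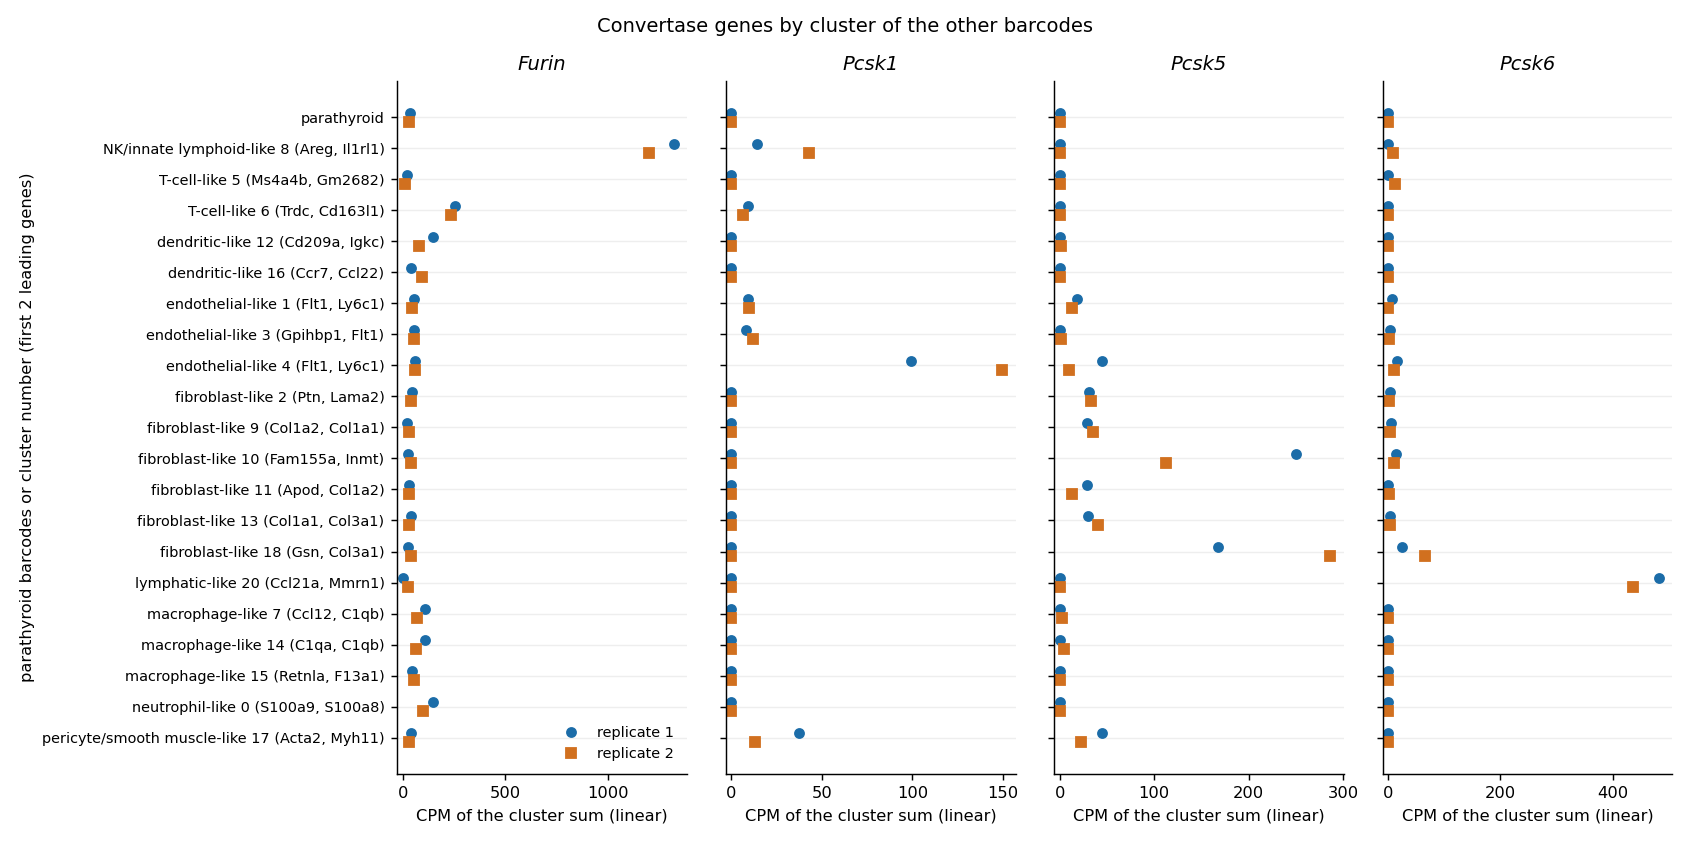
Level of Furin, Pcsk1, Pcsk5 and Pcsk6 in CPM, on a linear axis, in parathyroid barcodes and in each named cluster of the other barcodes, with 1 point per library. Furin peaks in NK/innate lymphoid-like cluster 8, Pcsk1 in endothelial-like cluster 4, Pcsk5 in fibroblast-like clusters 10 and 18, and Pcsk6 in the 8 lymphatic endothelial-like barcodes of cluster 20.

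Within parathyroid barcodes, the replicates differed more for some genes than for others. The ratio of replicate 1 to replicate 2 was 1.17 for Furin (95% counting interval 1.08 to 1.26), 1.38 for Pcsk7 (1.25 to 1.53), 1.50 for Pcsk4 (1.23 to 1.83) and 1.44 for Cpe (1.36 to 1.52). It was 1.08 for Cpd (1.02 to 1.15), 0.943 for Pam (0.888 to 1.00) and 0.513 for Pcsk5 (0.231 to 1.03). The pools differed in mice, ages and depth, and these cannot be told apart as sources. Pcsk5 in replicate 2 was also uneven among parathyroid barcodes: 10 of its 46 UMIs came from the 55 barcodes with Pth between 5 and 10%.

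The levels were also read across parathyroid barcodes grouped by their Pth share, over UMIs other than Pth so that Pth itself does not dilute them. Furin was at 40.4, 38.6, 35.0 and 47.2 CPM at Pth shares of 5 to 10, 10 to 15, 15 to 20 and 20% or more in replicate 1, and at 29.6, 32.7, 33.1 and 34.6 CPM in replicate 2. The counting intervals of the lowest and highest group overlapped in both libraries. Pcsk7 ran from 29.5 to 17.7 CPM and from 18.9 to 13.4 CPM between these groups, and its intervals overlapped as well. Cpe was at 73.2, 76.9, 81.0 and 118 CPM in replicate 1 and at 57.6, 56.7, 55.6 and 53.8 CPM in replicate 2. Its intervals for the lowest and highest group overlapped in both libraries. In replicate 2 those of all groups overlapped, so that no order can be read there. Cpd was at 72.0 CPM in the lowest and 48.0 CPM in the highest group of replicate 2, and at 68.8 and 64.9 CPM in replicate 1. The groups hold 25 to 1216 barcodes, and barcodes of 1 library are not replicates, so that no test was made. Around the 5% limit the counts were too few to read: 3 and 6 barcodes with Pth at 3 to 5% held 2 and 0 Furin UMIs and 2 and 2 Cpe UMIs, and 2 and 6 barcodes with Pth at 5 to 7% held 1 and 0 Furin UMIs and 1 and 3 Cpe UMIs.

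**Figure D5:**
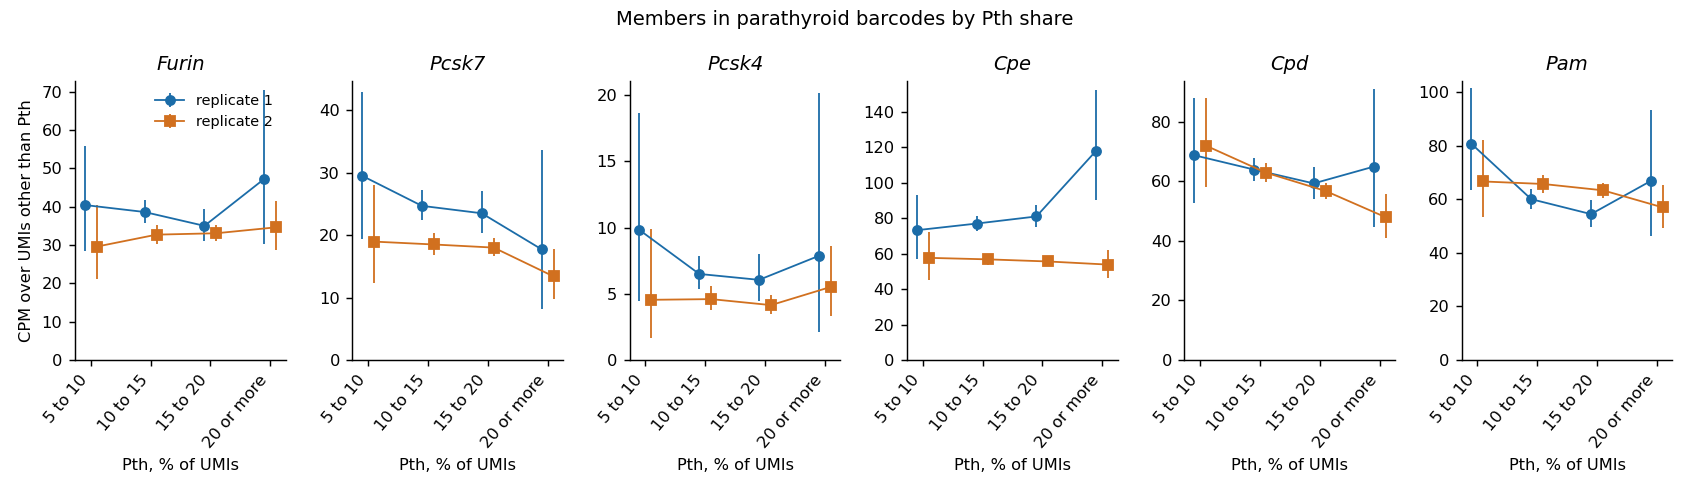
Level of Furin, Pcsk7, Pcsk4, Cpe, Cpd and Pam in CPM over UMIs other than Pth, in parathyroid barcodes grouped by the Pth share of their UMIs, with 1 line per library and bars for the 95% counting interval. Furin stays between 29.6 and 47.2 CPM in all groups, and Cpe runs from 73.2 to 118 CPM in replicate 1 and from 57.6 to 53.8 CPM in replicate 2.

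How often a parathyroid barcode showed several of the enzymes at once depended on depth. After thinning to 10000 UMIs a UMI of any convertase was seen in 45.7% and 35.9% of parathyroid barcodes, and of both Furin and Pcsk7 in 5.48% and 3.35%. Furin or Pcsk7 together with Cpe or Cpd was seen in 30.2% and 19.4%. With all UMIs the share with any convertase was 84.2% and 72.9%, that with both Furin and Pcsk7 40.8% and 20.8%, and that with Furin or Pcsk7 together with Cpe or Cpd 78.9% and 63.1%. A barcode without a UMI at this depth does not show a cell without the enzyme.

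A list of 42 further genes of the pathway was examined next, of which 39 were tested. Against the mean of the other classes, where 58.1% of all genes were called in either direction, 16 were called higher in parathyroid barcodes, 4 lower and 19 neither. Their median log2 difference was 0.09, beside 0.15 over all genes. Of 9 Golgi sorting genes 4 were higher and 2 lower, of 8 tested chaperones, inhibitors and relatives 5 were higher and 1 lower, and of 6 genes for copper supply, ascorbate supply and pyroglutamate formation 4 were higher and none lower. Of 6 granule acidification genes 1 was higher, of 5 tested carboxypeptidases and relatives 1 was higher and 1 lower, and of 5 other processing proteases 1 was higher.

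The 4 genes of this list with the smallest p were Ap1m2, Scg5, Cpxm1 and Qpct. Ap1m2, the epithelial medium chain of the AP-1 sorting adaptor, was at 41.1 and 37.8 CPM in parathyroid barcodes and had 18 UMIs in all 5 other classes, with 0 in dendritic-like and macrophage-like barcodes. Scg5, the chaperone 7B2 that PC2 needs to mature, was at 33.8 and 34.0 CPM, from 1024 and 2430 UMIs, while Pcsk2 itself had 4 and 9. It had 29 UMIs in the other 5 classes, 0 of them in dendritic-like barcodes. Against fibroblast-like barcodes Ap1m2 was higher by 5.72 (SE 0.39, edgeR adjusted p = 8.57e-07) and Scg5 by 5.21 (SE 0.39, edgeR adjusted p = 7.97e-07). Both were called higher against each of the 5 classes. Ap1m2 and Scg5 passed the count filter mainly through parathyroid barcodes, where they were high. Each also had a class without a UMI, for which a mean of logs has no sound value. Their rank by p and these calls therefore describe these genes and do not support a statement about the list.

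Qpct, which forms N-terminal pyroglutamate, was at 169 and 210 CPM in parathyroid barcodes and higher than the mean of the classes by 2.90 (SE 0.21, edgeR adjusted p = 2.6e-07). Cpxm1, a carboxypeptidase-like protein without known enzyme activity, was at 77.7 and 59.6 CPM. It was called higher than the mean of the logs of the classes, yet fibroblast-like barcodes were at 330 and 300 CPM, and against these it was lower by -2.12 (SE 0.22, edgeR adjusted p = 5.15e-06). Atox1, the copper chaperone, had the highest level among the genes not called, with means of 237 CPM in parathyroid barcodes and 393 CPM over the other classes (log2 difference -0.25, edgeR adjusted p = 0.212). Pcsk1n, which encodes the PC1/3 inhibitor proSAAS, had 17 and 41 UMIs in parathyroid barcodes and was not tested.

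Furin and Cpe were the convertase and the later-acting enzyme of highest mean CPM over the 2 libraries in parathyroid barcodes. In replicate 2 alone Cpe was below Cpd and Pam. Genes with a pattern like that of Furin or Cpe were listed by Pearson correlation of log2(CPM + 1) over the 12 sums among 13452 genes. Among the closest to Furin were Siah2 (r = 0.968) and Fbxo34 (r = 0.964), and the closest to Cpe were Zmat3 (r = 0.980), Rab11fip2 (r = 0.965) and Zfp512b (r = 0.959). The 12 points share 2 libraries and were picked from many genes, so these values are a description only.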

How the data were processed

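The deposited matrices hold raw UMI counts per gene and barcode, which the authors made with Cell Ranger 7.0.0 on mm10, per the submitters' processing notes; how barcodes were called as cells and which annotation was used are not stated in these sources. Enzymatic digestion with papain, collagenase and trypsin, a flow cytometry gate for single cells and the 10x 3' v3.1 kit preceded sequencing, per the labels' protocols. Barcodes with under 500 genes, 15% or more mitochondrial UMIs or 5% or more haemoglobin UMIs were left out, as were 19 and 6 remaining Scrublet doublets (predicted for 1.64% and 0.171% of all barcodes). Of 4924 barcodes, 4553 were kept, at medians of 27223.5 and 27288 UMIs, and the libraries shared 3 barcode sequences.

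Barcodes with Pth under 1% were clustered (scanpy 1.11.5, scikit-learn 1.9.0, python-igraph 0.11.9; 2000 variable genes without the genes tested here and Pth, 30 principal components, 15 neighbours, Leiden resolution 1) and named from 112 markers of 20 cell types. Classes with fewer than 20 barcodes in a library were not tested. CPM values, exact Poisson intervals of counts and exact binomial intervals of shares (scipy 1.17.1, 95%) were computed here.

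Sums of UMI counts over each class of each library were tested with edgeR 4.0.16 (TMM, filterByExpr, quasi-likelihood, 5 residual degrees of freedom), with library as a block, since all classes within 1 library share their mice. The fit was tested on simulated counts. DESeq2 1.42.0 and its size factors were alternatives, as were other count, quality, doublet and Pth limits, a finer clustering, counts without Pth, no library block and each library alone. TMM moved the median log2 difference of all genes by 0.24 against endothelial-like, 0.34 against T-cell-like 0.11 against the mean of the classes and -0.08 to 0.08 against the other 3 classes relative to scaling by total UMIs, so that fitted differences can depart from CPM ratios. Against a class with 3 or fewer UMIs, counts and ratios are given in place of fitted differences.

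All 10 genes were named. Of the pathway list, all 42 were found (Nrdc as Nrd1). The 4 called genes of smallest p and the uncalled gene of highest level were named from it. Also named were the 3 genes closest in pattern to the convertase and to the later-acting enzyme of highest mean level. A marker and a gene of like pattern are not reported here. Pcsk1n and the genes that lead clusters were named after their values were seen. The 10 genes, the pathway list, the markers and the tests were chosen with earlier results of these data known. Gene positions are from GENCODE on GRCm38.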

Additional observations from a re-analysis of the deposited data

Results flagged for a closer look

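In 3 kinds of barcodes that were too few for the tests, a gene of the family stood above the counting intervals of all 6 classes compared, in both libraries. Furin was at 1319 and 1202 CPM in the NK/innate lymphoid-like barcodes, 13 in replicate 1 and 35 in replicate 2, and a Furin UMI was seen in 13 of 13 and 33 of 35 of them. Their leading genes were Areg, Il1rl1, Ccr8 and Il5, and no single barcode held more than 27.3% and 10.7% of the Furin UMIs. Pcsk6 was at 483 and 436 CPM in the lymphatic endothelial-like barcodes, 3 and 5 in number, from 15 and 19 UMIs. Cpe was at 354 and 367 CPM in the pericyte or smooth muscle-like barcodes, 10 and 22 in number, from 47 and 83 UMIs. These values come from few barcodes and were not tested.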

How the results depend on the processing

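Across 12 alternative settings the pairs of a gene and a class called higher numbered 7 to 12 (8 as reported) and those called lower 17 to 19 (18 as reported). Against the mean of the classes, 2 genes were called higher without the count filter, since Pcsk4 then entered, and 7 lower with DESeq2, against 1 and 3 as reported. The 4 added by DESeq2 were Pcsk1, Pcsk2, Pcsk5 and Pcsk6, where Pcsk2 turned from 0.38 to -2.21, and over all genes DESeq2 called 4142 higher and 4410 lower there, against 4811 and 2893 with edgeR; the cause was not tested. With the stricter quality filter Pcsk5 turned to -3.56 against T-cell-like barcodes, a class that after renewed clustering held 68 barcodes with 11 Pcsk5 UMIs in replicate 2, in place of 58 with 0. The summed convertase level was 62.7 CPM over UMIs other than Pth (53.3 as reported, 47.4 to 59.3 by library). The share with any convertase UMI was 23.6% at 5000 UMIs (40.8% as reported, 35.9 to 45.7% by library). Without the library block, which pairs the classes of 1 library, the Furin call against endothelial-like barcodes was lost (-0.61, edgeR adjusted p = 0.0805), and no other call on the tested genes changed. With 1 library no residual degrees of freedom remain, so that such values have no test. The settings without TMM and without the T-cell-like cluster with NK genes were chosen after seeing the data.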
